A study of Mus musculus with 6 samples.

Results

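Monocyte-derived cell marker genes are genes that are high in blood monocytes and in cells newly derived from them. The set described here holds 8 of the 48709 genes in the table, found by symbol and all present: Ly6c2, Plac8, Lyz1, Lyz2, S100a4, S100a6, Fn1 and Vcan. Their levels were read by RNA sequencing in macrophages washed from the peritoneal cavity and sorted by flow cytometry on F4/80 and CD11b. Cells came from untreated Zeb1 (+/-) mice, heterozygous for the transcription factor gene Zeb1, or from wild-type mice. All mice were C57BL/6 and aged 6 to 8 weeks. Each genotype had 3 libraries, and each library came from a pool of 2 mice, so the spread between libraries is not that between single mice. Nothing in the labels says how the Zeb1 allele was made.

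Blood monocytes enter the peritoneal cavity and can become macrophages there. The resident majority of the cavity, the large peritoneal macrophages, maintains itself with limited input from monocytes at rest, while the small peritoneal macrophages are replaced from them. As monocytes mature into macrophages in mice they lose the surface protein encoded by Ly6c2, whereas lysozyme is kept by macrophages at large.

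Library totals were between 17859872 and 42165006 counts. Zeb1 was at 3.85, 3.45 and 3.62 CPM (counts scaled to the TMM-adjusted library size) in Zeb1 (+/-) replicates 1, 2 and 3, against 5.44, 7.56 and 7.22 CPM in wild-type replicates 1, 2 and 3. The lower values were all in Zeb1 (+/-) libraries, although the difference did not pass the threshold used below (log2 fold change −0.89 ± 0.16 SE, edgeR adjusted p = 0.0522). Small structural RNAs set wild-type replicates 1 and 2, at 4.14 and 8.69 CPM, apart from the other 4 libraries, at 42.2 to 45.5 CPM. Fits with a structural RNA term (wild-type replicates 1 and 2 against the rest), or with the mean log2 CPM of B cell markers as a term, are given for part of the results. With the structural RNA term, the genotype difference sets the Zeb1 (+/-) libraries against wild-type replicate 3 alone. The B cell marker sums, given with Plac8, did not overlap between genotypes. Neither term can be fully told apart from genotype, so a lost call or turned sign with it has no single reading.

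The sequences that matter for reading the lysozyme results are those of Lyz1 and Lyz2, a duplicated pair on the minus strand of chromosome 10 (GRCm38, 117287797 to 117292868 for Lyz1 and 117277331 to 117282321 for Lyz2). Their coding sequences, from the GENCODE transcripts, are each 447 bases long and 95.1% identical. They differ at 22 bases in all. The first 300 bases are shown, with capitals for the 20 differences among them.
Lyz1: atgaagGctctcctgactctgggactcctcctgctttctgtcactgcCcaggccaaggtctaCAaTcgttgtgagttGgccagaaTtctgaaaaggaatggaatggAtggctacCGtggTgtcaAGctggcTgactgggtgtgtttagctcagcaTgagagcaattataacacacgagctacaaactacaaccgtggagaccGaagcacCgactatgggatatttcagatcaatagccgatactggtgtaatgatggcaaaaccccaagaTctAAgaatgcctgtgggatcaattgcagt
Lyz2: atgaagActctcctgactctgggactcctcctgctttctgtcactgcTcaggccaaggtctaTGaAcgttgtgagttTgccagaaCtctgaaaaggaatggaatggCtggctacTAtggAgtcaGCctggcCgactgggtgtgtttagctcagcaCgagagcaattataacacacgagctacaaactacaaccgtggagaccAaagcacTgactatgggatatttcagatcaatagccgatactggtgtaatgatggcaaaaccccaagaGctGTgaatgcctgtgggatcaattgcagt
The longest stretch without a difference ran over 118 bases, and 80 of the 398 overlapping stretches of 50 bases were the same in both. Over the whole annotated transcripts, 16.1% of the 50-base stretches of Lyz1 also occurred in Lyz2, and 15.4% of those of Lyz2 in Lyz1. A read from such a stretch cannot be placed by its own sequence. Because Lyz1 counts were a small part of Lyz2 counts in every library (given with the lysozyme results), the placing of shared reads could change the Lyz1 value and the ratio by more than these shares.

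Upstream of the pair the sequences were less alike. Shown are the 200 bases from 250 to 51 before each RefSeq start (GRCm38.p6, minus strand, chr10:117292919-117293118 for Lyz1 and chr10:117282323-117282522 for Lyz2), with capitals for bases not matched in a global alignment.
Lyz1 upstream: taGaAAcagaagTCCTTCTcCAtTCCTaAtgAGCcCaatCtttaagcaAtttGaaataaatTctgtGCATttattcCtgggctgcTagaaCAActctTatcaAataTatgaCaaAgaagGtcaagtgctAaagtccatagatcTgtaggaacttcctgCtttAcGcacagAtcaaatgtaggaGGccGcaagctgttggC
Lyz2 upstream: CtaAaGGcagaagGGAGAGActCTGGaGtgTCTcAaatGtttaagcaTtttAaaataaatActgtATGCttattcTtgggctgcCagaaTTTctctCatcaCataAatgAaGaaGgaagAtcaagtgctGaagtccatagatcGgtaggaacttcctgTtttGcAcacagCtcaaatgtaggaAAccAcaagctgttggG
The alignment had 150 identical columns of 202, or 74.3%. Motif matches were searched in the 300-base RefSeq promoter windows (250 bases before to 50 after a start) of the 7 marker genes with an entry, all but Fn1. The E-box CAGGTG, the form of the hexamer that ZEB1 is known to bind, was in 0 of their 9 windows on either strand, while 20.2% of all 32851 windows held it. That says only that these letters are not in these windows.

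The 8 genes differed widely in level. Per kilobase of the longest annotated transcript, Lyz2 averaged 32479 ± 6409 CPM in Zeb1 (+/-) libraries and 32219 ± 7214 CPM in wild-type libraries (SD, n = 3 each). Fn1 averaged 5280 ± 218 and Lyz1 1562 ± 847 CPM per kilobase in Zeb1 (+/-) libraries, against 5015 ± 414 and 1627 ± 564 in wild-type. These 3 ranked 1, 3 and 28 of the tested genes by that measure. S100a4 and S100a6 followed at 251 ± 15.1 and 74.0 ± 1.68 CPM per kilobase in Zeb1 (+/-), against 282 ± 46.0 and 79.0 ± 1.79 in wild-type. Plac8, at 5.72 ± 1.44 in Zeb1 (+/-) and 8.29 ± 2.15 CPM per kilobase in wild-type, stood near the middle of the tested genes, with 53.4% of them lower. Vcan, at 0.816 ± 0.108 and 0.679 ± 0.174, and Ly6c2, at 0.0914 ± 0.0124 and 0.168 ± 0.0655 CPM per kilobase in Zeb1 (+/-) and wild-type, were at the low end. In this order each gene's lowest library stood above the highest library of the next gene. The order rests on the length used, such as 12427 bases for Vcan and 1224 for Plac8. Which transcripts were present was not tested. Without division by length, Vcan and Plac8 averaged 10.1 and 7.01 CPM in Zeb1 (+/-), and 8.44 and 10.1 CPM in wild-type. Fn1 and Lyz2 together took 8.61% ± 0.756 of all counts in Zeb1 (+/-) libraries and 8.45% ± 0.723 in wild-type libraries.

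**Figure D1:**
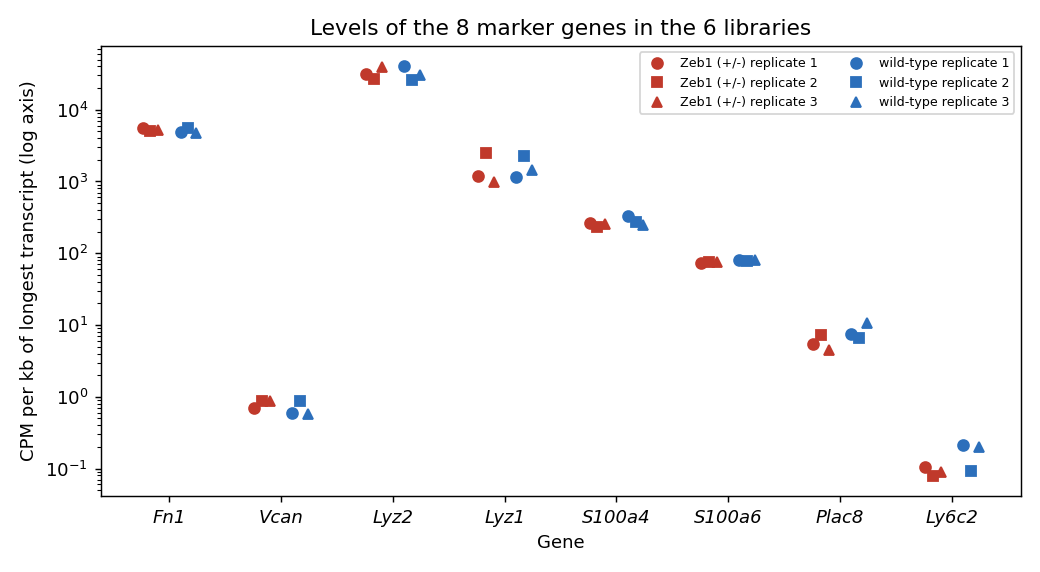
Level of each marker gene in each library, as CPM per kilobase of the longest annotated transcript on a log axis, with Zeb1 (+/-) libraries in red and wild-type libraries in blue. Lyz2 and Fn1 lie at the top and Ly6c2 at the bottom in both genotypes, and only for S100a6 do the genotypes not overlap.

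The name of the set was checked against these levels. Ly6c2, which encodes a Ly-6C surface protein that defines classical monocytes in mice, had 5, 9 and 8 counts in Zeb1 (+/-) replicates 1, 2 and 3 and 19, 7 and 10 counts in wild-type replicates 1, 2 and 3. Its neighbour Ly6c1 had 3 counts in wild-type replicate 1 and 0 in the other 5 libraries, where a count of 0 allows up to 0.0711 to 0.168 CPM by counting error alone. Fn1 and Lyz2, by contrast, were among the 3 highest of all tested genes per kilobase. Genes on the same list of names were thus near the detection limit or near the top of the transcriptome, and no amount of monocyte-derived cells was read from them. In bulk RNA, fewer cells of a type and less RNA per cell cannot be told apart.

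The comparison asked whether monocyte marker mRNAs differ between Zeb1 (+/-) and wild-type peritoneal macrophages. Of the 8 genes, 7 passed the filter on low counts, and 0 of these changed by edgeR's quasi-likelihood test at a Benjamini-Hochberg adjusted p of 0.05 over all 12940 tested genes. In the same fit 0.587% of all tested genes changed. DESeq2 and limma-voom also called 0 of the 7. At an unadjusted p under 0.05 there was 1 by edgeR (Plac8), 1 by DESeq2 and 0 by limma-voom, against 14.6% of all tested genes by edgeR. The median log2 fold change of the 7, Zeb1 (+/-) over wild-type as throughout, was −0.06, with 4 below 0 and 3 above, and the median of all tested genes was −0.00039. Groups did not overlap for 1 of the 7 (S100a6), as for 19.9% of all tested genes. The count of called marker genes was 0 under each of the 15 alternative settings.

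**Figure D2:**
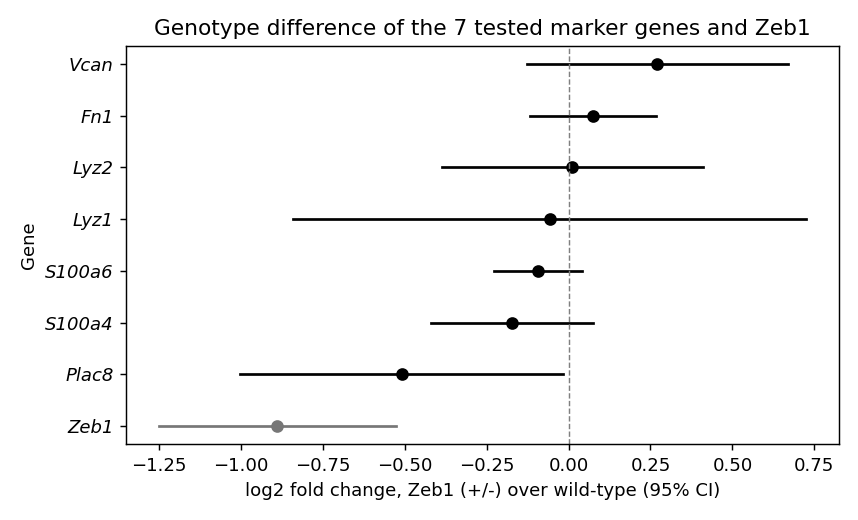
Log2 fold change, Zeb1 (+/-) over wild-type, with its 95% confidence interval for the 7 tested marker genes (black) and Zeb1 (grey). The intervals of Vcan, Fn1, Lyz2, Lyz1, S100a6 and S100a4 include 0, and that of Plac8 runs from −1.002 to −0.017 before adjustment over all genes.

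Ly6c2 was at 0.279, 0.212 and 0.244 CPM in Zeb1 (+/-) replicates 1, 2 and 3, against 0.571, 0.248 and 0.531 CPM in wild-type replicates 1, 2 and 3. The genotypes overlapped, because wild-type replicate 2 was as low as the Zeb1 (+/-) libraries. With 22 counts in the 3 Zeb1 (+/-) libraries and 36 in the 3 wild-type libraries, it did not pass the filter. An exact two-sided permutation test of its CPM gave p = 0.2, where 3 against 3 cannot go below 0.1. Fitted without the filter, its log2 fold change was −0.88 ± 0.50 (SE; 95% confidence interval −1.89 to 0.14, edgeR adjusted p = 0.552). Of the 50-base stretches of Ly6c2, 13.9% were also found in Ly6c1.

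Plac8 encodes a small cysteine-rich protein of myeloid cells that lymphocytes also make. It was at 6.70, 8.90 and 5.42 CPM in Zeb1 (+/-) replicates 1, 2 and 3, against 9.19, 8.13 and 13.1 CPM in wild-type replicates 1, 2 and 3. The highest value was in wild-type replicate 3 and the lowest in Zeb1 (+/-) replicate 3, but Zeb1 (+/-) replicate 2 stood above wild-type replicate 2. Its log2 fold change was −0.51 ± 0.22 (SE; edgeR adjusted p = 0.332), and its 95% confidence interval in folds ran from 0.499 to 0.988. The summed level of the 17 B cell marker genes was 175 to 208 CPM in Zeb1 (+/-) libraries and 231 to 414 CPM in wild-type libraries, with the 414 in wild-type replicate 3. Of the 16 tested, 15 had a log2 fold change below 0 and 0 passed the threshold by edgeR. Bank1, the 1 above 0 (0.05), made up 76.2 CPM of a mean sum of 194 CPM in Zeb1 (+/-). In wild-type it was 73.9 CPM of 300 CPM. The median log2 fold change of the 16 was −0.95. At an unadjusted p under 0.05 by edgeR there were 13, against 14.6% of all tested genes. None of the 17 was at 0 in all libraries. With a B cell term the log2 fold change of Plac8 was 0.10 (edgeR adjusted p = 0.891). Without wild-type replicate 3 it was −0.30, and with a structural RNA term −0.89 (edgeR adjusted p = 0.308). The part of B cells in the Plac8 difference was not tested beyond these fits.

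Lyz2 and Lyz1 encode lysozymes, enzymes that cleave the bacterial cell wall. In mice Lyz2 is the form of myeloid cells and Lyz1 is best known from Paneth cells of the gut. Lyz2 was at 41432, 35039 and 51754 CPM in Zeb1 (+/-) replicates 1, 2 and 3, against 52799, 34193 and 40211 CPM in wild-type replicates 1, 2 and 3. The genotypes covered nearly the same range, and the log2 fold change was 0.01 ± 0.18 (SE; 95% confidence interval −0.39 to 0.41, edgeR adjusted p = 0.981).

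Lyz1 was at 1491, 3199 and 1230 CPM in Zeb1 (+/-) replicates 1, 2 and 3, against 1472, 2849 and 1842 CPM in wild-type replicates 1, 2 and 3. Replicate 2 was the highest of its genotype in both, and these same libraries had the lowest Lyz2. The within-genotype SD of log2 CPM was 0.62 for Lyz1, larger than that of 96.2% of tested genes, and 0.30 for Lyz2. The log2 fold change of Lyz1 was −0.06 ± 0.35 (SE; edgeR adjusted p = 0.952), and its 95% confidence interval in folds, 0.558 to 1.65, is the widest of the 7 tested genes. Without Zeb1 (+/-) replicate 2 it was −0.59 and without wild-type replicate 2 it was 0.25, and with a B cell term −0.17, none past the threshold.

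The ratio of the pair does not depend on library scaling. There were 3.60, 9.13 and 2.38 Lyz1 counts per 100 Lyz2 counts in Zeb1 (+/-) replicates 1, 2 and 3, against 2.79, 8.33 and 4.58 in wild-type replicates 1, 2 and 3. The ratio thus varied 3.84-fold over the 6 libraries, with the replicate 2 library highest in each genotype. Its log2 value averaged −4.55 ± 0.99 in Zeb1 (+/-) and −4.40 ± 0.79 in wild-type libraries (SD, n = 3 each), a difference of −0.15 (exact two-sided permutation p = 0.8, smallest possible 0.1). Same-numbered libraries share a set number in their titles, but the labels do not say whether they are paired.

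**Figure D3:**
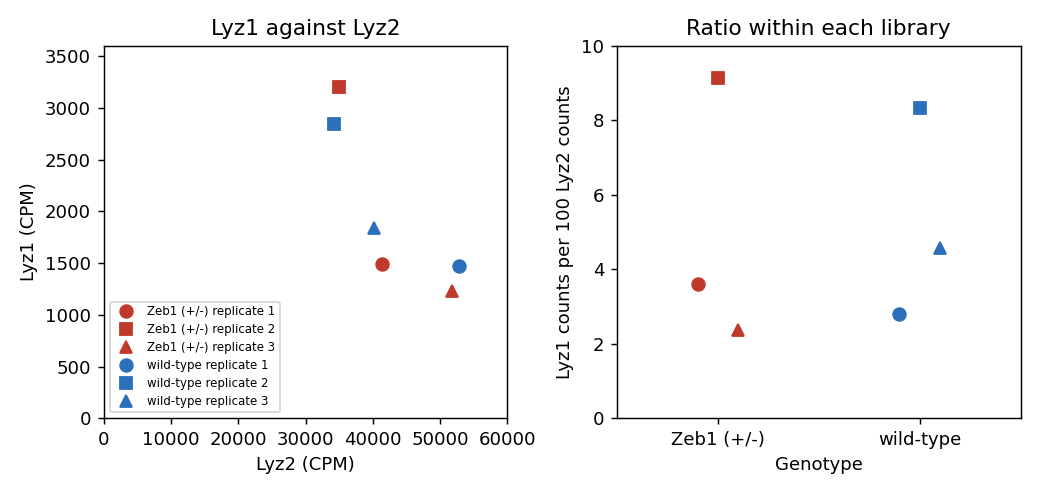
Left, Lyz1 against Lyz2 in CPM for each library. Right, Lyz1 counts per 100 Lyz2 counts by genotype. Both replicate 2 libraries (squares) stand apart from the other 4, with Lyz1 at 3199 CPM in Zeb1 (+/-) and 2849 CPM in wild-type, and the genotypes overlap.

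S100a4 and S100a6 encode small calcium-binding proteins of the S100 family, which act by binding other proteins such as annexins and myosin. Both lie on chromosome 3 (GRCm38, plus strand, 90603771 to 90606045 and 90612882 to 90624181). S100a4 was at 131, 117 and 128 CPM in Zeb1 (+/-) replicates 1, 2 and 3, against 166, 134 and 122 CPM in wild-type replicates 1, 2 and 3. The groups overlapped, and wild-type replicate 1 stood above the other 5 libraries. The log2 fold change of −0.17 ± 0.11 (SE; 95% confidence interval −0.42 to 0.08, edgeR adjusted p = 0.502) was −0.03 without that library, 0.039 with a structural RNA term and −0.39 with a B cell term, none past the threshold. In the annotation 47.4% of the 50-base stretches of S100a4 also occur in the gene Gm42674.

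S100a6 had the smallest within-genotype spread of the 7 tested marker genes. It was at 56.4, 58.6 and 58.7 CPM in Zeb1 (+/-) replicates 1, 2 and 3, against 63.0, 60.3 and 62.2 CPM in wild-type replicates 1, 2 and 3. All Zeb1 (+/-) values were below all wild-type values, as for 10.3% of all tested genes in that direction. Its log2 fold change was −0.09 ± 0.06 (SE; edgeR adjusted p = 0.500), and its 95% confidence interval in folds was 0.855 to 1.03. Within genotypes, only 1.90% of tested genes had a smaller SD of log2 CPM. The ratio of S100a4 to S100a6 counts was 2.32, 1.99 and 2.17 in Zeb1 (+/-) replicates 1, 2 and 3, against 2.64, 2.23 and 1.96 in wild-type replicates 1, 2 and 3, with overlapping groups (exact two-sided permutation p = 0.7, smallest possible 0.1).

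Fn1 encodes fibronectin, a matrix protein that cells grip through integrins, and Vcan encodes versican, a large proteoglycan that binds hyaluronan. Fn1 (GRCm38 chromosome 1, 71585520 to 71653200, minus strand) was at 45949, 42489 and 43262 CPM in Zeb1 (+/-) replicates 1, 2 and 3, against 40223, 45634 and 39238 CPM in wild-type replicates 1, 2 and 3. The groups overlapped through wild-type replicate 2. Its log2 fold change was 0.07 ± 0.09 (SE; edgeR adjusted p = 0.727), with a 95% confidence interval in folds of 0.921 to 1.20. With a structural RNA term it was 0.16 (edgeR adjusted p = 0.770).

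Vcan (GRCm38 chromosome 13, 89655312 to 89742509, minus strand) was at 8.59, 11.002 and 10.8 CPM in Zeb1 (+/-) replicates 1, 2 and 3, against 7.33, 10.9 and 7.06 CPM in wild-type replicates 1, 2 and 3. Wild-type replicate 2 stood with the Zeb1 (+/-) libraries and the other 2 wild-type libraries below all of them. The log2 fold change was 0.27 ± 0.18 (SE; 95% confidence interval −0.13 to 0.67, edgeR adjusted p = 0.513). Without wild-type replicate 2 it was 0.50, with a structural RNA term 0.54, and with a B cell term −0.093, all at edgeR adjusted p between 0.335 and 0.899. Fibroblasts and mesothelial cells also make Fn1, Vcan and S100a6. The 12 markers of these cells summed to 0.335 to 0.637 CPM in Zeb1 (+/-) and 0.480 to 1.70 CPM in wild-type libraries, 0 of them passed the filter and Pdgfra was at 0 throughout.

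The 3 marker genes that varied most over the 6 libraries were Ly6c2, Lyz1 and Plac8, with SDs of log2 CPM of 0.62, 0.56 and 0.43. For each, the most similar profiles were sought among 9605 other genes with a mean of at least 5 CPM, by the root mean square difference of centred log2 CPM over the 6 libraries. They were Adrbk2 and Dpp4 for Ly6c2 (0.25 and 0.30), Gm4841 and Slpi for Lyz1 (0.24 and 0.27), and Kif23 and Cdkn2b for Plac8 (0.13 and 0.15). Slpi, which encodes a secreted inhibitor of leukocyte proteases, was at 906, 1497 and 776 CPM in Zeb1 (+/-) replicates 1, 2 and 3, against 957, 1117 and 892 CPM in wild-type replicates 1, 2 and 3. Since Slpi was picked for its likeness to Lyz1, its highest values in replicate 2 of each genotype are no separate observation. Kif23 encodes a kinesin of cell division and Cdkn2b a cyclin-dependent kinase inhibitor.

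Other monocyte genes were read beside the set. Of 14 tested classical monocyte genes outside it, 1 fell, 0 rose and 13 did not pass, with a median log2 fold change of −0.05. Fits were below 0 for 8 and above 0 for 6. By edgeR, 3 of the 14 had an unadjusted p under 0.05, against 14.6% of all tested genes, of which 0.587% were called. Ccr2, the chemokine receptor that brings monocytes out of the bone marrow, fell to 173 ± 7.69 CPM in Zeb1 (+/-), against 266 ± 11.2 CPM in wild-type (SD, n = 3 each). Its log2 fold change was −0.62 (edgeR adjusted p = 0.00897), and the call was lost without replicate 2 of either genotype (−0.60 without Zeb1 (+/-) replicate 2, −0.61 without wild-type replicate 2), with a structural RNA term (−0.55) and with a B cell term (−0.69). F13a1 was at 317 CPM in Zeb1 (+/-) and 501 CPM in wild-type (log2 fold change −0.66, edgeR adjusted p = 0.152). Emb went the other way, at 62.3 CPM in Zeb1 (+/-) and 48.5 CPM in wild-type (0.36, edgeR adjusted p = 0.191). The chitinase-like gene Chil3 was at 6.61 CPM in Zeb1 (+/-) and 6.22 CPM in wild-type, with a log2 fold change of 0.10 that did not pass.

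Of 8 tested genes of non-classical monocytes, which patrol vessels, 1 fell, 0 rose and 7 did not pass, with a median of −0.34. Fits were below 0 for 6 and above 0 for 2. By edgeR, 3 of the 8 had an unadjusted p under 0.05, against 14.6% of all tested genes, of which 0.587% were called. The 9 genes of the list summed to 111 to 116 CPM in Zeb1 (+/-) and 137 to 159 CPM in wild-type libraries. Itgal, the alpha chain of the integrin LFA-1, fell to 10.5 ± 1.87 CPM in Zeb1 (+/-), against 18.3 ± 2.10 CPM in wild-type (log2 fold change −0.79, edgeR adjusted p = 0.0482). That call was lost without replicates 1 and 2 of each genotype in turn, with edgeR adjusted p between 0.0454 and 0.188 over the 6 fits with 1 library left out, and with a structural RNA term (−0.63) or a B cell term (−1.02). Lymphocytes also express Itgal, and the B cell marker sums given with Plac8 were lower in Zeb1 (+/-) too. Those sums were highest in wild-type replicate 3. Itgal was at 16.4 CPM there, against 20.6 and 18.1 CPM in wild-type replicates 1 and 2. The part of lymphocytes in the Itgal difference was not tested.

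The families of the marker genes gave few calls. Over all tested genes the shares by edgeR were 0.587% called and 14.6% at an unadjusted p under 0.05. Of 14 other S100 genes 5 passed the filter and 0 changed, with S100a10, the annexin A2 partner, at 198 ± 8.17 CPM in Zeb1 (+/-) and 169 ± 13.04 CPM in wild-type (log2 fold change 0.23, edgeR adjusted p = 0.203). At an unadjusted p under 0.05 by edgeR there was 1 of the 5. S100a8 and S100a9, the neutrophil and monocyte alarmin pair, had 225 and 34 counts over all 6 libraries. Of 12 other Ly6 genes in the table, 4 passed the filter and 0 changed, 2 at an unadjusted p under 0.05 by edgeR, among them Ly6a at 3.78 ± 0.403 CPM in Zeb1 (+/-) and 7.53 ± 2.95 CPM in wild-type (edgeR adjusted p = 0.134). Of 9 S100 binding partners 0 changed by edgeR, 4 at an unadjusted p under 0.05, the lowest p being that of Anxa5, at 87.5 ± 14.8 CPM in Zeb1 (+/-) and 129 ± 10.6 CPM in wild-type (log2 fold change −0.55, edgeR adjusted p = 0.0832).

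Among 8 tested partners of fibronectin and versican, 1 rose, 0 fell and 7 did not pass, with 5 fits below 0 and 3 above. By edgeR, 3 of the 8 had an unadjusted p under 0.05, against 14.6% of all tested genes, of which 0.587% were called. Itgb1, the integrin beta 1 chain of the main fibronectin receptors, was at 1699.9, 1801 and 1667 CPM in Zeb1 (+/-) replicates 1, 2 and 3, against 1316, 1291 and 1284 CPM in wild-type replicates 1, 2 and 3. It rose by 0.41 ± 0.06 on the log2 scale (SE; edgeR adjusted p = 0.0328). Its fold change was steady, 0.38 to 0.44 with 1 library left out, but the adjusted p was 0.0455 to 0.168 and passed the threshold only without Zeb1 (+/-) replicate 3; the call was also lost with a structural RNA term (0.42) and a B cell term (0.41). Its alpha partners Itga4 and Itga5 were at 443 and 38.8 CPM in Zeb1 (+/-) and at 458 and 45.0 CPM in wild-type. Cd44, the hyaluronan receptor, was at 304 CPM in Zeb1 (+/-) and 310 CPM in wild-type. Itgb3 was at 55.7 CPM in Zeb1 (+/-) and 41.1 CPM in wild-type (log2 fold change 0.44, edgeR adjusted p = 0.226). Tlr2 went the other way, at 89.6 CPM in Zeb1 (+/-) and 116 CPM in wild-type (−0.37, edgeR adjusted p = 0.327). Versican-cleaving Adamts genes and hyaluronan synthase genes had 0 to 11 counts over all 6 libraries.

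Macrophage lists give the setting. Of 15 small peritoneal macrophage genes, a list chosen with earlier results of these data known, 10 fell and 0 rose, with a median of −0.52. Among them Mrc1, Fcrls, Ccr2 and H2-Eb1 had the smallest p. Of these Mrc1, the mannose receptor, was called in all 6 fits with 1 library left out. Without wild-type replicate 2 the calls of Fcrls (−0.64), Ccr2 and H2-Eb1 (−0.55) were lost, and without Zeb1 (+/-) replicate 2 those of Ccr2 and H2-Eb1 (−0.52). All 4 calls were lost with a B cell term, and those of Fcrls, Ccr2 and H2-Eb1 with a structural RNA term. Of 19 large peritoneal macrophage genes 0 changed by edgeR (median 0.25, lowest p for Adgre1, the gene of F4/80). Among them 17 fits were above 0 and 10 had an unadjusted p under 0.05. Of 11 core macrophage genes 0 changed (median 0.05), with 2 at an unadjusted p under 0.05. Over all tested genes, 0.587% changed and 14.6% had an unadjusted p under 0.05 by edgeR. Whether the 7 marker genes differ in response from the small peritoneal macrophage genes was not tested.

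**Figure D4:**
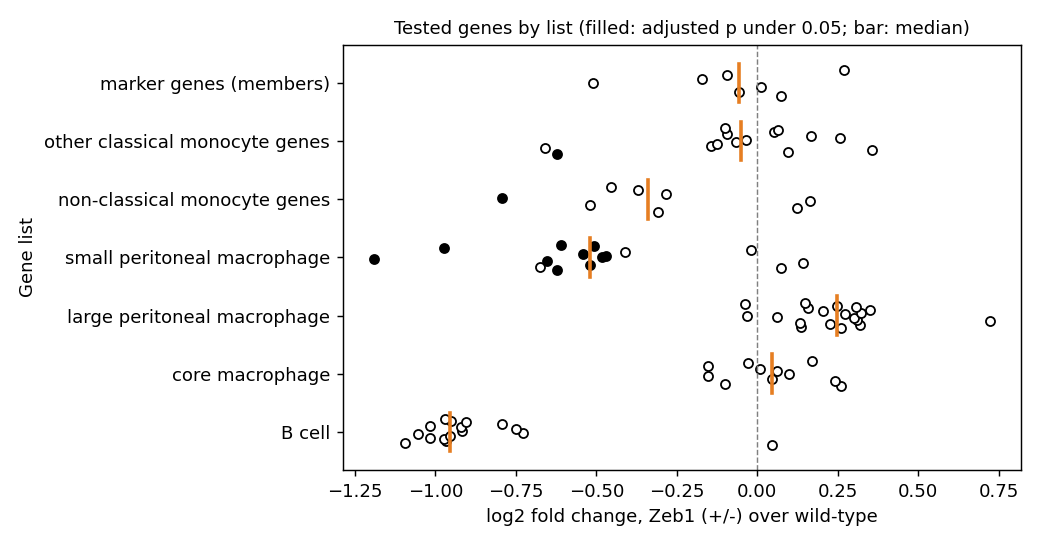
Log2 fold change, Zeb1 (+/-) over wild-type, of each tested gene by list, with filled points for an edgeR adjusted p under 0.05 and an orange bar at the median. The marker genes have no filled point and a median of −0.06, and the small peritoneal macrophage list has 10 filled points, all below 0.

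Markers of other cell types that a sort could hold were summed as well. Neutrophil markers, 11 genes, summed to 2.22 to 3.92 CPM in Zeb1 (+/-) and 1.92 to 2.55 CPM in wild-type libraries, with Mpo at 0 throughout, and the lowest p was that of Mmp8 (edgeR adjusted p = 0.390). T and NK cell markers, 13 genes, summed to 1.74 to 2.01 CPM in Zeb1 (+/-) and 1.56 to 3.54 CPM in wild-type libraries (lowest p for Cd4, edgeR adjusted p = 0.747). Dendritic cell markers, 8 genes, summed to 21.3 to 27.6 CPM in Zeb1 (+/-) and 29.1 to 40.4 CPM in wild-type libraries (lowest p for Batf3, edgeR adjusted p = 0.102). Eosinophil and mast cell markers, 13 genes, summed to 7.37 to 9.99 CPM in Zeb1 (+/-) and 3.93 to 8.28 CPM in wild-type libraries. Epx and Prg2 were at 0 throughout. Of the 8 tested, 1 rose, 0 fell and 7 did not pass, with 5 fits above 0 and 3 below. By edgeR, 3 of these 8 had an unadjusted p under 0.05, against 14.6% of all tested genes, of which 0.587% were called. The gene that rose was Cd200r3, at 3.06 CPM in Zeb1 (+/-) and 0.467 CPM in wild-type (log2 fold change 2.70, edgeR adjusted p = 0.00708). Its call was lost with a structural RNA term and with a B cell term. Ccr3 was at 1.77 CPM in Zeb1 (+/-) and 0.810 CPM in wild-type (log2 fold change 1.22, edgeR adjusted p = 0.151). Il5ra went the other way, at 0.612 CPM in Zeb1 (+/-) and 1.27 CPM in wild-type (−1.08, edgeR adjusted p = 0.318). Erythroid and platelet genes, 9 in all, summed to 427 to 725 CPM in Zeb1 (+/-) and 530 to 748 CPM in wild-type libraries. Most of that sum was Pf4, listed as a platelet gene, at 572 CPM in Zeb1 (+/-) and 526 CPM in wild-type. Pf4 had 97941 counts over all 6 libraries, while the platelet genes Ppbp, Gp9 and Itga2b had 1, 1 and 97. No amount of platelets was read from the sum. The haemoglobin genes were at lower means in Zeb1 (+/-), such as Hbb-bs at 11.8 CPM in Zeb1 (+/-) and 38.2 CPM in wild-type, but did not pass (lowest p for Hba-a1, edgeR adjusted p = 0.317). The lowest p among B cell markers was that of Blk (edgeR adjusted p = 0.0895). The part of these cells in the marker gene values was not tested.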

How the data were processed

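Estimated counts per gene were deposited by the authors in 1 column per library. Per the submitters' processing notes, STAR, RSEM and edgeR were used on GRCm38. All values were whole numbers, so expected counts appear to have been rounded before deposit. The annotation release and the strand setting are not given in the sources used here. Per the labels' protocols, RNAzol was used for RNA and a stranded TruSeq mRNA kit for libraries. Columns were mapped by the identifier in each sample's description, and 0 were left unmapped. Marker genes were found by symbol, and coordinates, lengths and transcripts came from GENCODE M21 (99.3% of identifiers matched without version); promoter sequences are RefSeq's.

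Genes were filtered by filterByExpr (minimum count 10, minimum total 15), scaled by TMM (factors 0.976 to 1.01) and tested by edgeR 4.0.16 quasi-likelihood in R 4.3.3, with p-values adjusted by Benjamini-Hochberg over all 12940 tested genes. The SE is the log2 fold change divided by the square root of F, and 95% intervals use the t distribution. Ratios were tested by exact permutation in scipy 1.17.1. Alternatives were DESeq2 1.42.0, limma 3.58.1 voom, RLE factors, other filters, robust moderation, replicate number as a block, 2 technical terms and each library left out. With 1 CPM standing for 17.9 to 42.2 counts, intervals and floors cover counting error and the spread between pooled libraries only.

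The marker genes and all lists were chosen with earlier results of these data known. From each further list the genes named were those past the threshold (at most 4, by smallest p), or failing any the one with the smallest p; other members are named as examples chosen after their values were seen. The sample titles give each library a set number, called the replicate number here. The labels do not say whether samples with the same number are paired.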

Additional observations from a re-analysis of the deposited data

How the results depend on the processing

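The count of called marker genes was 0 in all 15 alternatives. The number of called genes over the whole table, 76, was 522 without a low-count filter, 351 by DESeq2, 31 with a structural RNA term, 4 with a B cell term, and 5 (without wild-type replicate 2) to 127 (without Zeb1 (+/-) replicate 3) with 1 library left out. With the replicate number as a block it was 15. In that fit the calls of Ccr2, Itgal, Itgb1, Fcrls and H2-Eb1 were lost (edgeR adjusted p between 0.0654 and 0.188). Those of Mrc1 and Cd200r3 were kept. Deviations of same-numbered libraries from their genotype means correlated at −0.25, −0.03 and −0.17 over 12940 genes. No library correlated best with its own number. With 3 libraries per genotype, these correlations cannot show that same-numbered libraries share nothing.

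Signs turned for 6 of the 7 tested marker genes, all but S100a6. With a B cell term Plac8 was at 0.10, Lyz2 at −0.13, Fn1 at −0.031 and Vcan at −0.093. With a structural RNA term Lyz1 was at 0.10 and S100a4 at 0.039. With 1 library left out Lyz1 ran from −0.59 to 0.25, Lyz2 from −0.15 to 0.20, the log2 difference of the Lyz1 to Lyz2 ratio from −0.70 to 0.27 and that of the S100a4 to S100a6 ratio from −0.17 to 0.047; the cause was not tested. S100a6 kept its sign in all 15 alternatives. Ly6c2 had only 4 alternative fits, without each Zeb1 (+/-) library in turn and without wild-type replicate 2, its lowest wild-type library. Its sign was kept in these. No fit of Ly6c2 left out either of the wild-type libraries with its higher values, or held a structural RNA or B cell term. Whether its sign holds there was not tested. Zeb1 passed the threshold without a filter (−0.87), with robust moderation (−0.89), by DESeq2 (−0.89) and without wild-type replicate 1 (−1.03), and ran from −1.03 to −0.79 with 1 library left out. Alternatives for called genes of the further lists were added after the data were seen. Counts of 5 to 19 per library limit what can be said of Ly6c2.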
